A study of Mus musculus with 12 samples.

Results

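Mitochondria carry their own small circular genome, and its upkeep and transcription depend on proteins encoded in the nucleus. Here 9 such genes were followed in mouse left ventricle: Tfam, Tfb1m, Tfb2m, Polrmt, Mterf3, Twnk, Polg, Lrpprc and Slirp. They were chosen by gene symbol from the 56748 genes of the count table, and all 9 were found there. No measured value was part of the rule, but the genes were chosen with earlier results of these data known. Their levels are set beside the summed counts of the 37 genes whose symbols start with mt-, which are encoded on mitochondrial DNA itself.

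Transcription of mitochondrial DNA is done by a single-subunit RNA polymerase, POLRMT, with TFAM bending the promoter DNA and TFB2M opening it. TFAM also coats and packs the DNA. MTERF3 is known as a negative regulator of mitochondrial transcription and a factor for ribosome assembly, and TFB1M methylates the small ribosomal RNA. Replication needs the helicase Twinkle (Twnk) and the catalytic subunit of DNA polymerase gamma (Polg). LRPPRC and SLIRP form a complex that binds and stabilises mitochondrial messenger RNA. Heart muscle is rich in mitochondria, and both strands of their genome are copied into long transcripts that are then cleaved, mostly at the transfer RNAs.

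The study used C57BL/6J mice labelled wild type, with 4 left ventricles in each of 3 groups. All mice received an AAV9 vector, an adeno-associated virus that reaches heart muscle well, through the tail vein. Sham hearts had control vector and sham surgery, control infarcts had control vector and ligation of the left anterior descending coronary artery, and Irx3 infarcts had the same ligation and a vector for Irx3, a homeobox transcription factor. Tissue was taken at day 14. Irx3 vector was not paired with sham surgery in any group, so its comparison is within infarcted hearts. The sources used here do not give the age and sex of the mice or the promoter of the vector.

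Libraries held 13352604 to 19236721 counts and were made from polyadenylated RNA, and the labels give 1 batch. Irx3 itself stood at 16.8 to 30.5 normalised read counts scaled to library size (CPM) in the 8 control-vector libraries and at 285 to 513 in the 4 Irx3 libraries, with no overlap. The labels name the cell type as cardiomyocytes, but all 8 fibroblast markers and all 8 macrophage markers were also measured, so the tissue is treated as whole ventricle. The summed CPM of 10 cardiomyocyte markers ran from 101242 to 117714 in sham hearts, from 28531 to 68867 in control infarcts and from 34550 to 59211 in Irx3 infarcts. The summed fibroblast markers ran from 634 to 816, from 13036 to 36195 and from 3765 to 25209 in the same order. In such bulk tissue, fewer cells of a type and less RNA per cell cannot be told apart.

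The 9 genes differ in base composition, and this bears on the comparison with Irx3 vector below. GC content is the share of G and C bases in a gene's main transcript. It was 42.5% for Mterf3 and Tfb2m, 43.2% for Slirp, 44.9% for Tfam, 45.9% for Tfb1m and 47.1% for Lrpprc. The 3 GC-richer genes were Polg at 52.7%, Twnk at 53.2% and Polrmt at 60.9%. Their coding sequences alone had 57.9% for Polg, 54.1% for Twnk and 61.1% for Polrmt. Polrmt stood at the 97.0th percentile of the genes tested, and Mterf3 at the 11.4th. The contrast is shown in stretches of 90 coding bases, each picked because its composition is close to that of the whole transcript. The stretch of Polg is therefore poorer in GC than its whole coding sequence. These stretches were taken from GENCODE M21 transcripts on GRCm38, with every G and C in capitals. They cover coding bases 412 to 501 of Mterf3 (38 G or C), 82 to 171 of Tfam (40), 727 to 816 of Polg (47) and 73 to 162 of Polrmt (55).
Mterf3: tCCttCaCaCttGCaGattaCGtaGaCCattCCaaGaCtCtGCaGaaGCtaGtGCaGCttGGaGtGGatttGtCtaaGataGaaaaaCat
Tfam: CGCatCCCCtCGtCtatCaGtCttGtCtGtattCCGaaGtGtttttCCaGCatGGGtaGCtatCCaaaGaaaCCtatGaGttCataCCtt
Polg: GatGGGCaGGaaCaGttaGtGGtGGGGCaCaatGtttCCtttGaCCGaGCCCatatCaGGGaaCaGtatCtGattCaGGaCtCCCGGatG
Polrmt: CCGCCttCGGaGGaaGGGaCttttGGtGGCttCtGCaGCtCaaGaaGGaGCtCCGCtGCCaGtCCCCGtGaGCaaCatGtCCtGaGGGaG

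All 9 genes passed the filter on low counts, but Slirp did so only through the Irx3 group. Per kilobase of transcript, Lrpprc was the most abundant in sham hearts at 57.2 ± 5.12 CPM (SD, n = 4). Polrmt followed at 29.6 ± 3.77 and Polg at 18.05 ± 1.12 CPM per kilobase, and these ranges did not overlap. Twnk at 15.1 ± 1.43 overlapped with Polg and with Tfb2m at 14.7 ± 1.501 CPM per kilobase. Mterf3 stood at 7.81 ± 0.56, Tfam at 6.05 ± 0.82 and Tfb1m at 2.61 ± 0.21, each range below the one before it, and Slirp at 0.12. In control infarcts the ranges of Tfb2m, Twnk and Mterf3 overlapped, with means of 7.08, 5.94 and 5.89 CPM per kilobase. In Irx3 infarcts Mterf3 at 15.1 ± 3.05 and Tfb2m at 14.2 ± 4.00 CPM per kilobase came directly after Lrpprc at 38.5 ± 9.77. Polrmt, at 9.88 ± 1.88 CPM per kilobase, was no longer second in order there, although its range overlapped those of both. These levels are not corrected for GC content, which was lowest for Mterf3 and Tfb2m and highest for Polrmt. Its part in the change of order was not tested.

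Slirp was the one gene at the edge of detection. Its raw counts were 5, 8, 1 and 6 in sham hearts, 1, 12, 11 and 2 in control infarcts, and 22, 38, 13 and 35 in Irx3 infarcts. Of its exon bases, 93.9% overlap exons of Snw1 on the other strand, and the sources used here do not give the strand setting of the authors' counting. Its values are therefore uncertain. Smaller shares of Twnk (12.6%, Mrpl43) and Polg (8.57%, Fanci) lie under exons of a neighbour on the opposite strand.

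**Figure D1:**
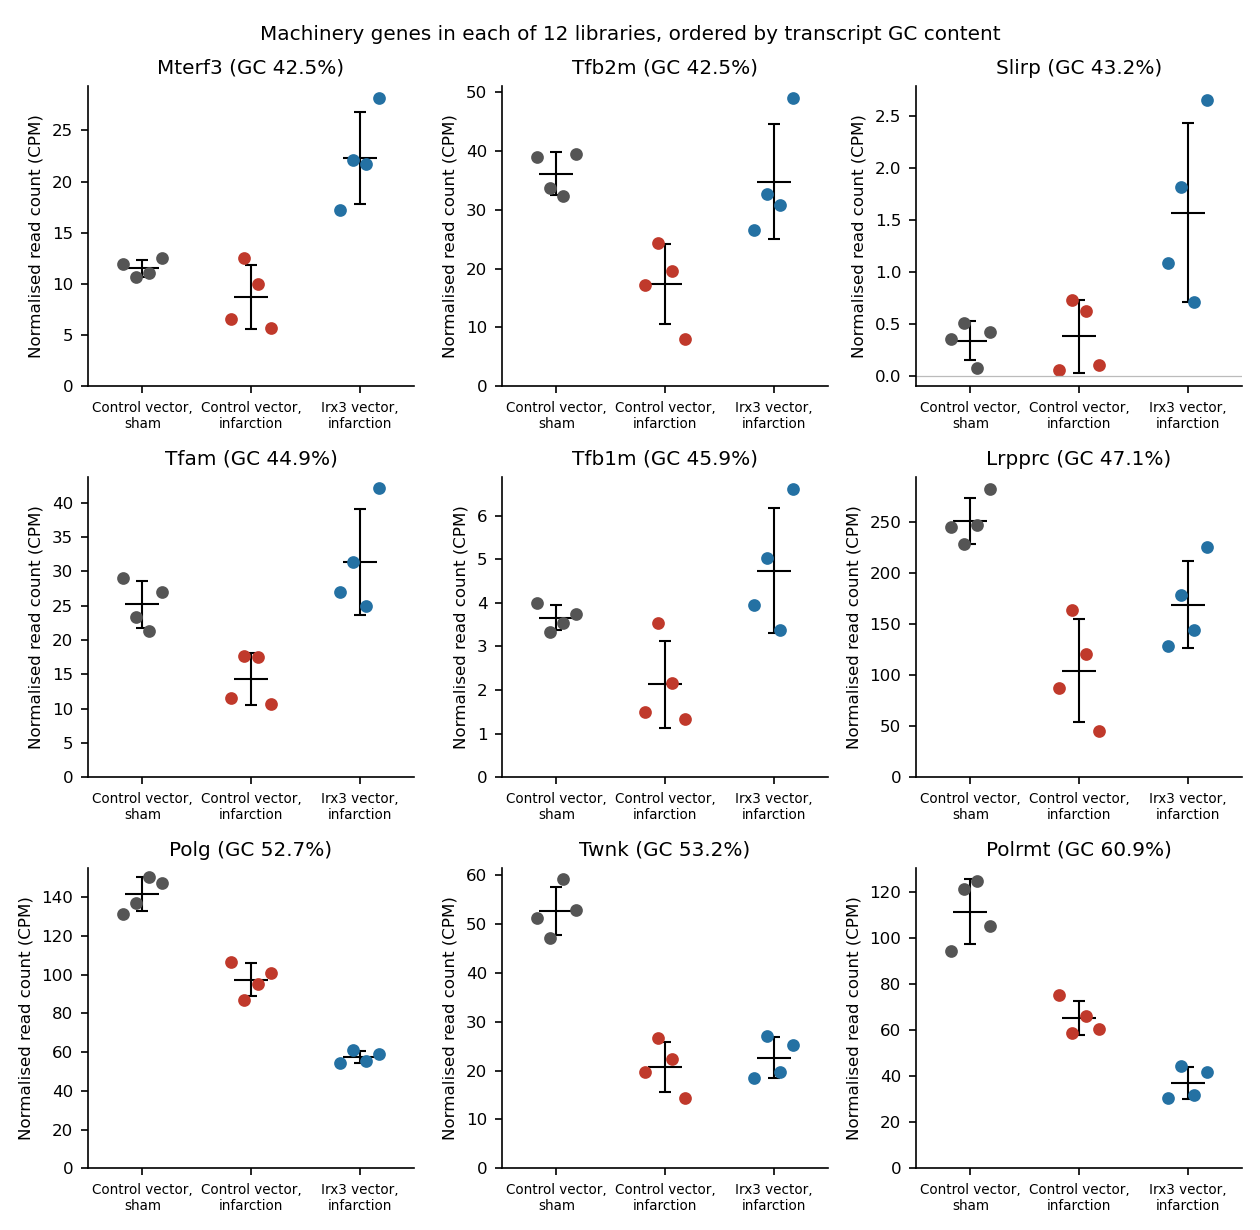
Normalised read count (CPM, linear axis) of each of the 9 genes in each of 12 libraries, 1 point per mouse, with the group mean and SD in black, ordered by transcript GC content. Every control infarct lies below every sham heart for Tfam, Tfb2m, Lrpprc, Twnk, Polg and Polrmt. Irx3 infarcts lie below control infarcts for Polg and Polrmt, and above them for Mterf3, Tfb2m and Tfam.

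The first comparison asked how infarction under control vector changed these genes. Of the 9 genes, 6 were lower in control infarcts than in sham hearts at an adjusted p under 0.05 in edgeR, and 0 were higher (also 0 at an unadjusted p under 0.05 and by DESeq2). Over all genes tested, 22.4% were called lower and 26.3% higher. The median log2 fold change of the 9 genes was -0.78, against 0.01 over all genes. The same 6 genes were those whose groups did not overlap, which held in this direction for 22.8% of all genes. Against a minimum fold change of 1.5 (glmTreat of edgeR) the calls of Twnk and Lrpprc remained and those of Tfam, Tfb2m, Polrmt and Polg ended. Over all genes, 1229 of 15742 were called lower by that test.

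Among the transcription factors, Tfam stood at 29.0, 23.4, 21.4 and 27.0 CPM in sham hearts and at 11.5, 17.6, 17.6 and 10.7 in control infarcts. Every infarct was below every sham heart, and the fall was 1.76-fold (log2 -0.81, SE 0.21, adjusted p = 0.00559). Tfb2m stood at 39.0, 33.6, 32.3 and 39.5 CPM in sham hearts and at 17.2, 24.3, 19.6 and 8.11 in control infarcts. Its groups did not overlap either, and it fell 2.08-fold (log2 -1.06, SE 0.27, adjusted p = 0.00592). The polymerase gene Polrmt stood at 94.2, 121, 125 and 105 CPM in sham hearts and at 75.2, 58.8, 66.2 and 60.6 in control infarcts. The lowest sham heart stood above the highest infarct, and the fall was 1.71-fold (log2 -0.77, SE 0.15, adjusted p = 0.000972).

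The other factors of this kind were not called. Tfb1m, the ribosomal RNA methyltransferase, stood at 3.33 to 4.00 CPM in sham hearts and at 1.49, 3.54, 2.16 and 1.34 in control infarcts. Replicate 2 of the control infarcts lay within the sham range, and the log2 difference of -0.78 (SE 0.31) had an adjusted p of 0.0503. Without that library the difference was -1.19 with an adjusted p of 0.00345. Mterf3 stood at 10.7 to 12.5 CPM in sham hearts and at 6.58, 12.6, 9.96 and 5.73 in control infarcts. Here the same replicate 2 was above every sham heart, and the log2 difference of -0.41 (95% interval -0.93 to 0.11) had an adjusted p of 0.154. Without that library it was -0.70 with an adjusted p of 0.0135.

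Both replication genes fell. Twnk stood at 51.3, 47.2, 59.2 and 52.9 CPM in sham hearts and at 19.6, 26.7, 22.3 and 14.3 in control infarcts. With a 2.54-fold fall (log2 -1.35, SE 0.18, adjusted p = 0.000112), it had the greatest change among the 9 genes in this comparison. Polg stood at 132, 137, 150 and 147 CPM in sham hearts and at 107, 86.7, 95.1 and 101 in control infarcts. The groups were apart, although the fall was only 1.45-fold (log2 -0.54, SE 0.10, adjusted p = 0.00086).

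Of the RNA stability pair, Lrpprc stood at 246, 229, 247 and 282 CPM in sham hearts and at 87.8, 164, 121 and 45.1 in control infarcts. It fell 2.41-fold (log2 -1.27, SE 0.30, adjusted p = 0.00403), with the widest spread among infarcts of the called genes. Slirp, with 20 counts over the sham group and 26 over the control infarcts, had a log2 difference of 0.13 with a 95% interval of -1.62 to 1.88.

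A correction for base composition moved these values little. With a GC curve fitted to each library and removed, 7 genes were called lower, Tfb1m being the added one (log2 -0.74, adjusted p = 0.0354), against 22.5% of all genes. The log2 falls of the 6 others were then between -0.46 and -1.27. Cardiomyocyte markers moved the same way: 8 of 10 were called lower, with a median log2 fold change of -1.17. The part of this marker shift in the falls of the machinery genes was not tested.

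Within the control infarcts 2 libraries stood at the ends for most of the genes. Replicate 2, with the highest mitochondrial share (5.64% of counts) and the highest cardiomyocyte marker sum, was highest for 7 of the 9 genes and lowest for Polrmt and Polg. Replicate 4, with the lowest mitochondrial share (0.926%) and marker sum and the highest fibroblast marker sum, was lowest for Tfam, Tfb1m, Tfb2m, Mterf3, Twnk and Lrpprc. Without replicate 4, Lrpprc still fell by 1.08 on the log2 scale (adjusted p = 0.0128).

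The second comparison set Irx3 infarcts against control infarcts. It shares the control infarct libraries with the first. The genes divided: 4 were called higher (Tfam, Tfb1m, Tfb2m and Mterf3), 2 were called lower (Polrmt and Polg), and Twnk and Lrpprc were not called. Slirp is given without a test, because its high Irx3 counts are what brought it into the table tested. Over all genes tested, 25.2% were called higher and 24.1% lower. Against a minimum fold change of 1.5 (glmTreat) only the calls of Tfam and Mterf3 remained. Over all 15742 genes, 1703 were called higher and 1084 lower by that test. The 4 genes called higher had 42.5% to 45.9% GC, and the 2 called lower had 52.7% and 60.9%. Groups did not overlap for 3 genes that were higher (Tfam, Tfb2m and Mterf3) and 2 that were lower (Polrmt and Polg), against 22.1% and 18.9% of all genes. After removal of the GC curve 2 genes were called higher (Tfam and Mterf3) and 1 lower (Polg), against 13% and 12.3% of all genes.

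Mterf3 had 17.2, 22.1, 21.7 and 28.2 CPM in Irx3 infarcts, all above the control infarcts (5.73 to 12.6 CPM). The rise was 2.56-fold (log2 1.36, SE 0.23, adjusted p = 0.000418) and became 0.56 with the GC curve removed (SE 0.16, adjusted p = 0.0245). Tfam had 27.1, 31.4, 24.9 and 42.2 CPM, again all above the control infarcts (10.7 to 17.6 CPM). Its rise was 2.18-fold (log2 1.13, SE 0.21, adjusted p = 0.000729) and became 0.62 with the GC curve removed (SE 0.16, adjusted p = 0.0167). These GC-corrected calls are close to the threshold. That of Mterf3 ended without replicate 1 or replicate 4 of the control infarcts, or replicate 2 or replicate 4 of the Irx3 infarcts (adjusted p 0.0631 to 0.0761), and that of Tfam without replicate 1 of the control infarcts (adjusted p = 0.0542). Replicate 4 of the Irx3 infarcts was the highest of its group for Tfam, Tfb1m, Tfb2m, Mterf3, Lrpprc and Slirp. It also had the highest mitochondrial share (19.0%) and cardiomyocyte marker sum of that group and the lowest fibroblast marker sum. Replicate 4 of the control infarcts stood at the opposite ends of its group, as given above. With the GC curve removed and both replicates 4 left out, 0 of the 9 genes were called higher in edgeR, against 11.4% of all genes. Tfam and Mterf3 were then the 2 at an unadjusted p under 0.05, at 0.35 for Mterf3 and 0.39 for Tfam (adjusted p = 0.117 and 0.0708).

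The methyltransferase relatives Tfb1m and Tfb2m lost their calls with the GC curve. Tfb2m had 26.6, 32.7, 30.8 and 48.9 CPM in Irx3 infarcts, all above the control infarcts (8.11 to 24.3 CPM), and its log2 rise of 1.00 (SE 0.27, adjusted p = 0.00797) became 0.21 (adjusted p = 0.512). Tfb1m had 3.95, 5.03, 3.38 and 6.61 CPM, with 3 of 4 Irx3 infarcts above every control infarct. Its log2 rise of 1.15 (SE 0.31, adjusted p = 0.00738) became 0.78 (adjusted p = 0.0511).

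Polrmt moved opposite to its partner factors in the counts as deposited. It had 30.4, 44.3, 31.7 and 41.9 CPM in Irx3 infarcts, all below the control infarcts (58.8 to 75.2 CPM), a 1.76-fold fall (log2 -0.81, SE 0.15, adjusted p = 0.000726). Removing the GC curve left a difference of -0.15 (SE 0.13, adjusted p = 0.41). Leaving out both replicates 4 as well gave -0.32 (adjusted p = 0.0447), and Polrmt and Polg were then both called lower, against 11.6% of all genes. The curves alone differed by -0.67 between the groups at the GC content of Polrmt, and by 0.84 at that of Mterf3.

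Polg was the member whose call held in every GC-corrected fit. It had 54.5, 61.0, 55.6 and 58.9 CPM in Irx3 infarcts, all below the control infarcts (86.7 to 107 CPM), a 1.69-fold fall (log2 -0.76, SE 0.10, adjusted p = 0.000104). Its log2 difference in the GC-corrected fit was -0.48 (SE 0.08, adjusted p = 0.00117), and with 1 library also left out it stayed between -0.45 and -0.52. The curve used the GC content of the transcript, while the coding sequence of Polg has 57.9% GC. The median log2 fold change of all genes tested was -0.31 in the bin at 53% GC and -0.55 in that at 57%. A curve on coding GC content was not tested. Twnk, of nearly the same transcript GC content as Polg, had 18.5, 27.1, 19.8 and 25.3 CPM, within or just above the control infarcts (14.3 to 26.7 CPM). Its log2 difference was 0.13, with a 95% interval of -0.28 to 0.54, and 0.43 with the GC curve removed (adjusted p = 0.0973).

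Lrpprc had 128, 179, 144 and 225 CPM in Irx3 infarcts against 45.1 to 164 in control infarcts, with 2 of 4 above every control infarct. The log2 difference of 0.70 (95% interval 0.02 to 1.38) had an adjusted p of 0.0696. Its call depended on single libraries: without replicate 2 of the control infarcts the difference was 1.00 (adjusted p = 0.00965), and without replicate 1 of the Irx3 infarcts it was 0.81 (adjusted p = 0.0498). In the GC-corrected fit it was 0.45 (adjusted p = 0.239). Slirp had 108 counts over the Irx3 infarcts against 26 over the control infarcts, with overlapping groups. Its fitted log2 difference was 2.05 (SE 0.67), and 1.38 with the GC curve removed.

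**Figure D2:**
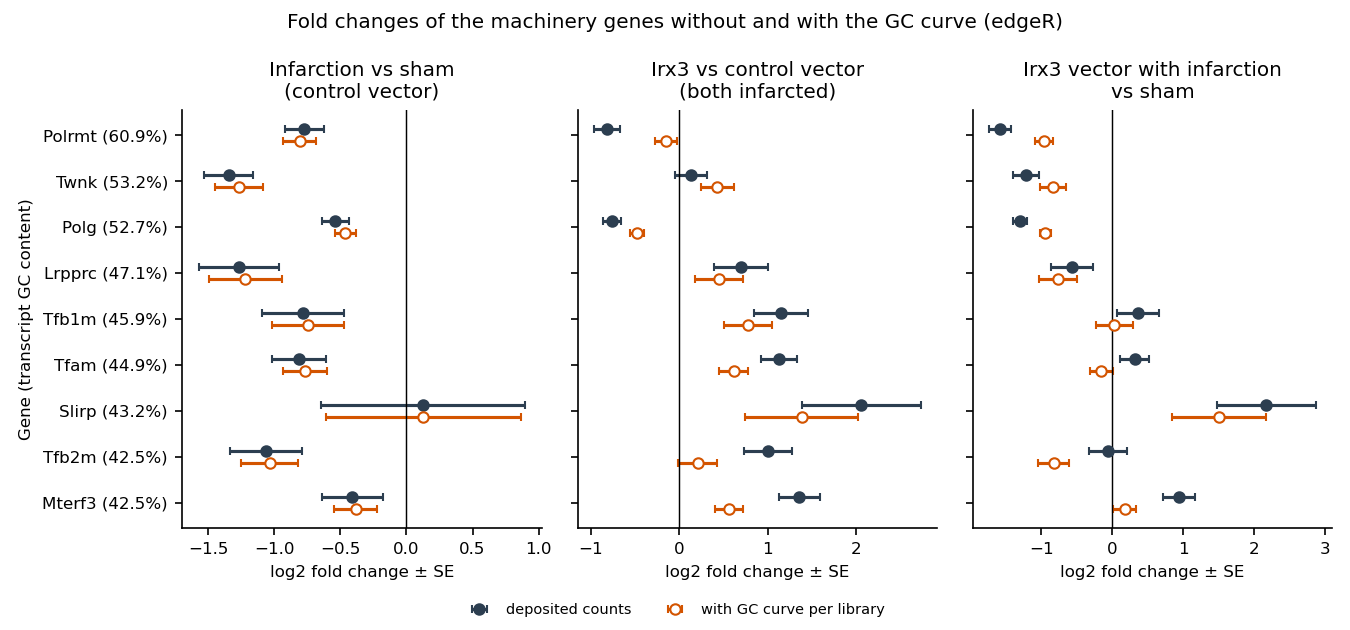
Log2 fold change ± SE of the 9 genes from edgeR in 3 comparisons, filled for the deposited counts and open with a GC curve removed from each library, genes ordered by transcript GC content. The filled and open points lie close together for infarction against sham. In the other comparisons the open points move left for the GC-poor genes and right for Polrmt, Polg and Twnk.

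The GC trend in this comparison ran over the whole table. Across 5 classes of the tested genes of equal size, from GC-poor to GC-rich, the median log2 fold change was 0.93, 0.35, -0.05, -0.38 and -0.62. In the infarction comparison the same classes had medians between -0.02 and 0.08. As a measure for single libraries, the fitted curve at 43% GC minus that at 60% was 0.91, 0.73, 1.02 and 1.00 in Irx3 infarcts. It was between -0.64 and -0.21 in sham hearts and between -0.92 and -0.00 in control infarcts, so the Irx3 libraries stood apart from the other 8. Cardiomyocyte markers had 1 of 10 higher and 2 lower in Irx3 against control infarcts (median log2 fold change -0.25), fibroblast markers 0 higher and 1 lower of 8 (median -0.46), and macrophage markers 0 higher and 4 lower of 8 (median -0.61). With the GC curve removed the cardiomyocyte markers had 1 higher and 0 lower, and their median turned to 0.22. The corrected counts were 0 higher and 2 lower for fibroblast markers (median -0.48) and 0 in either direction for macrophage markers (median -0.28). Their part in the member values was not tested. The cause of the GC difference was not tested, and with all 4 Irx3 libraries on one side it cannot be told apart from the vector.

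**Figure D3:**
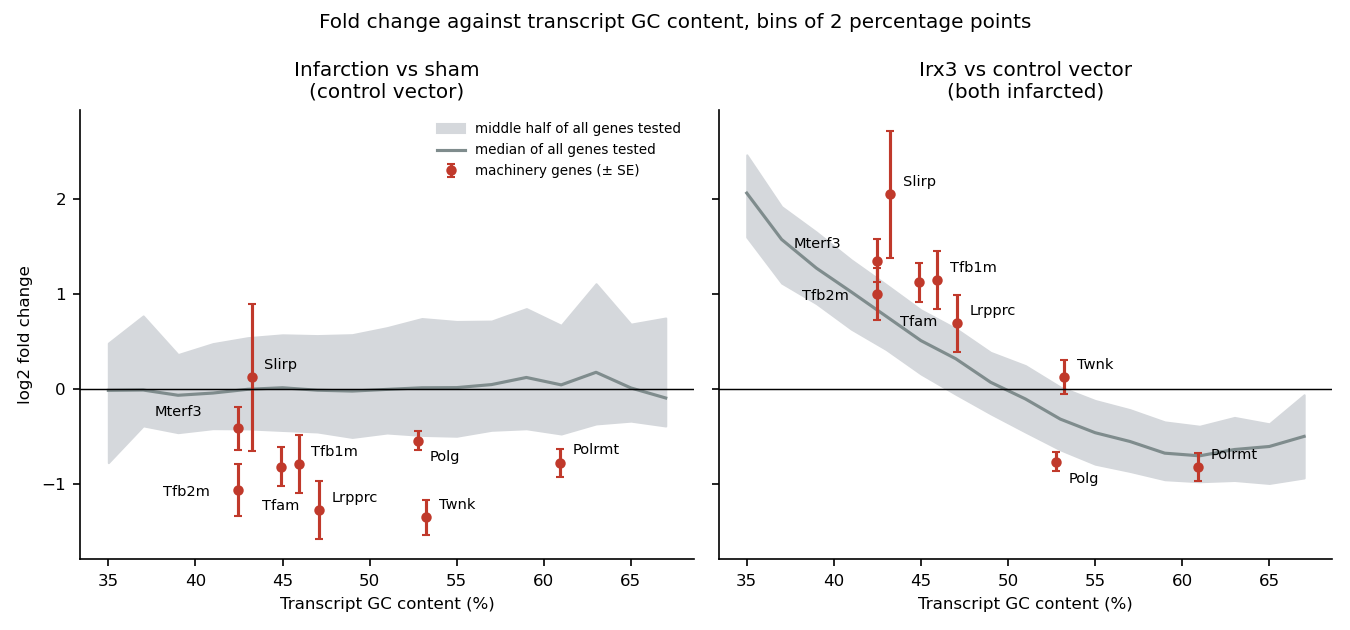
Log2 fold change against transcript GC content (%), with the median and the middle range (25th to 75th percentile) of all genes tested in bins of 2 percentage points, and the 9 genes ± SE. For infarction against sham the median stays near 0, and the 6 called genes lie below the shaded range. For Irx3 vector against control vector the median slopes down with GC content, Polrmt and Tfb2m lie near it, Tfam lies above it and Polg below.

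The third comparison, Irx3 infarcts against sham hearts, uses groups of both earlier comparisons. Slirp again left aside, 1 gene was called higher (Mterf3) and 3 lower (Polrmt, Twnk and Polg), against 35.2% and 27.7% of all genes. In the GC-corrected edgeR fit 0 were called higher (also 0 at an unadjusted p under 0.05) and 5 lower (Tfb2m, Polrmt, Twnk, Polg and Lrpprc), against 32.7% and 21.5%. Polrmt was lower than in sham hearts (log2 -1.59, SE 0.15, adjusted p = 3.83e-06) and remained lower with the GC curve removed (-0.96, adjusted p = 8.24e-05). Twnk was 2.32-fold lower (log2 -1.22, SE 0.18, adjusted p = 9.02e-05, and -0.84 with the GC curve removed). Polg fell by 1.30 (SE 0.10, adjusted p = 1.41e-06), and its GC-corrected difference was -0.95 (adjusted p = 4.11e-06). Every Irx3 infarct lay below every sham heart for these genes and Lrpprc, 4 in all, and above for Mterf3, against 27.6% and 33.2% of all genes.

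Tfam did not differ from sham by the test (log2 0.32, 95% interval -0.14 to 0.77, and -0.15 with the GC curve removed), and its groups overlapped. Tfb1m had a difference of 0.37 (interval -0.31 to 1.05). Tfb2m had -0.06 (interval -0.66 to 0.55) in the deposited counts and -0.83 with the GC curve removed (adjusted p = 0.00611). The rise of Mterf3 of 0.95 (SE 0.23, adjusted p = 0.00262) became 0.18 with the GC curve removed (adjusted p = 0.372). Lrpprc lay below sham in all 4 Irx3 libraries, at -0.57 (interval -1.25 to 0.11, adjusted p = 0.112), and was called with the GC curve removed (-0.77, adjusted p = 0.03). The fitted log2 difference of Slirp was 2.18 (SE 0.69), and 1.51 with the GC curve removed.

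The RNA made from mitochondrial DNA was measured in the same libraries. All mt- genes together took 8.22%, 5.001%, 4.496% and 6.88% of counts in sham hearts, 2.06%, 5.64%, 2.25% and 0.926% in control infarcts, and 10.4%, 12.6%, 12.7% and 19.0% in Irx3 infarcts. The 4 Irx3 libraries were above the other 8. The mean share in Irx3 infarcts was 5.04-fold that in control infarcts and 2.23-fold that in sham hearts. The exact two-sided permutation p was 0.0286 for both, the smallest that 4 against 4 allows. Control infarcts overlapped with sham hearts (difference -3.43 percentage points, exact permutation p = 0.0857).

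All 13 protein-coding mt- genes were called higher in Irx3 infarcts than in control infarcts, against 25.2% of all genes, with a median log2 fold change of 3.02. Among them mt-Atp8 had 2 to 37 counts in sham hearts, 0 to 24 in control infarcts and 106 to 426 in Irx3 infarcts. Like Slirp, it passed the filter on low counts only through the Irx3 libraries. These genes have 31.9% to 41.1% GC, below every one of the 9 machinery genes. Few genes tested lie there, with 58 in the bin at 35% GC and 179 in that at 37%, against 1658 at 51%. The mt- genes were also not kept out of the fit of the curve. How far this shaped their corrected values was not tested. After removal of the GC curve 9 of 13 were called higher, against 13% of all genes, and the median was 1.87. Against sham hearts 8 of 13 were called higher in Irx3 infarcts (61.5%, median 1.54), against 35.2% of all genes. With the GC curve removed 3 of 13 were (23.1%, median 0.28), below the 32.7% of all genes. There the most abundant of them changed sign with the GC curve, without a call in the corrected fit: mt-Co1 went from 0.52 to -0.52, mt-Cytb from 0.51 to -0.62, mt-Nd5 from 0.94 to -0.38 and mt-Nd4 from 1.00 to -0.46. The shares of counts above are not corrected for GC. In infarction against sham, 7 of 13 were called lower (10 with the GC curve removed), with a median of -1.54. Of all genes 22.4% were called lower there (22.5% with the GC curve removed). The mitochondrial share and Polrmt moved in opposite directions with Irx3 vector in the deposited counts. With the GC curve removed, the edgeR difference of Polrmt was -0.15 (adjusted p = 0.41). Counts of mt- genes per Polrmt count were 432 to 978 in sham hearts, 146 to 940 in control infarcts and 2625 to 4607 in Irx3 infarcts. Per Tfam count they were 2473 to 3179, 829 to 3137 and 3169 to 4574, with 3 of 4 control infarcts below every other library. Per Lrpprc count they were 218 to 375, 177 to 337 and 651 to 856. These ratios are not corrected for GC either, and they set GC-poor mt- genes over genes richer in GC, Polrmt most of all. The part of the GC trend in the ratios was not tested.

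The make-up of the mt- counts also differed. mt-Nd6, the only messenger RNA encoded on the light strand and one known to lack a stable poly(A) tail, made up 0.354%, 0.238%, 0.243% and 0.286% of the counts of the 13 protein-coding mt- genes in sham hearts. In control infarcts it made up 0.265%, 0.421%, 0.295% and 0.248%, and in Irx3 infarcts 2.65%, 2.48%, 2.93% and 2.63%. The 4 Irx3 libraries were again apart from the other 8. Without a known strand setting, counts of mt-Nd6 cannot be told apart from reads of the opposite strand there. The log2 fold change of mt-Nd6 in Irx3 against control infarcts was 5.17 (SE 0.67, adjusted p = 8.99e-05), and 3.44 with the GC curve removed (adjusted p = 0.000324). Counts on mitochondrial transfer RNA genes, which are not polyadenylated as mature molecules, were 96 to 636 in sham hearts, 6 to 547 in control infarcts and 4201 to 7364 in Irx3 infarcts. The transfer RNA genes tested were 16 of 22, and all 16 were called higher with Irx3 vector, against 25.2% of all genes. With the GC curve removed 12 were, against 13% of all genes. Given the few counts in the other groups, such genes may have entered the test only through the Irx3 group, as Slirp did. These calls are therefore given as a description.

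The ribosomal RNA genes mt-Rnr1 and mt-Rnr2 behaved less evenly. Their log2 fold changes with infarction were -2.04 (adjusted p = 0.0193, and 0.0544 without replicate 1 of the sham hearts) and -2.21 (adjusted p = 0.00238). With Irx3 vector mt-Rnr1 rose by 3.31 (adjusted p = 0.0016) and by 1.82 with the GC curve removed (adjusted p = 0.0211). mt-Rnr2 rose by 2.43 (adjusted p = 0.00137), and its GC-corrected difference of 0.80 was not called (adjusted p = 0.104). The corrected call of mt-Rnr1 ended without replicate 1 or 3 of the control infarcts or replicate 4 of the Irx3 infarcts (highest adjusted p 0.0624). Against sham hearts, mt-Rnr2 in Irx3 infarcts was at 0.22 (adjusted p = 0.699) and was called lower with the GC curve removed (-1.27, adjusted p = 0.00826). Together they were 2.31% to 2.72% of mt- counts in sham hearts, 1.15% to 1.59% in control infarcts and 1.45% to 1.98% in Irx3 infarcts. Poly(A) selection preceded these libraries, so these shares are not the abundance of ribosomal RNA in the tissue.

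**Figure D4:**
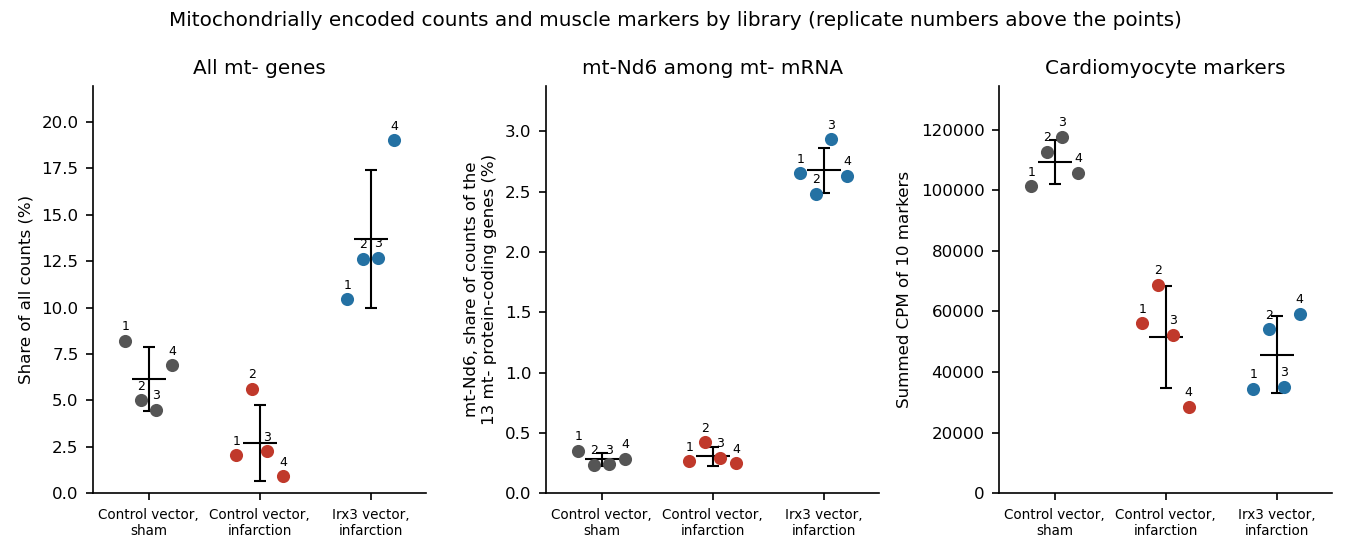
Share of all counts in mt- genes (left), mt-Nd6 as a share of the counts of the 13 protein-coding mt- genes (middle) and summed CPM of 10 cardiomyocyte markers (right), 1 point per mouse with its replicate number, mean and SD in black, all axes from 0. Irx3 infarcts lie above the other 8 libraries in the left and middle panels, while in the right panel both infarcted groups lie below sham and overlap.

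The GC curve moved with the mitochondrial share within 2 of the groups. In sham hearts and in control infarcts the 4 libraries had the same order by curve and by mitochondrial share, and in Irx3 infarcts they did not. The part of the curve in the share was not tested beyond the GC-corrected fits of single genes.

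The wider machinery was read from a list of 104 other genes of mitochondrial DNA replication, nucleotide supply, transcription, RNA processing, RNA modification, translation factors and tRNA synthetases, of which 102 were tested. With infarction 66 (64.7%) were called lower and 3 (2.94%) higher, with a median log2 fold change of -0.69, against 22.4% and 26.3% of all genes. The tRNA synthetases fell most uniformly (15 of 17 lower), among them Cars2 (-0.81), Tars2 (-0.81) and Ears2 (-1.09). Translation factors fell in 10 of 12 cases, RNA processing genes in 17 of 25 and nucleotide supply genes in 8 of 11. Replication and repair genes were mixed, with 3 of 12 lower and 2 higher. Those higher were the nuclease-helicase Dna2 (1.47, adjusted p = 0.000609) and the primase Primpol (1.34, adjusted p = 0.00563), which both also serve nuclear DNA. The third gene called higher was the thymidine kinase Tk2 (0.49, adjusted p = 0.0172), a call that ended in 4 of 12 fits with 1 library left out.

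Direct partners of the 9 genes were named whatever their values. Mgme1, a mitochondrial exonuclease that trims replication ends, fell by 1.12 (adjusted p = 0.000239), and Tefm, the elongation factor of POLRMT, fell by 0.79 (adjusted p = 0.0141). Mterf2 fell by 1.47 (adjusted p = 0.0072) and Mterf4 by 0.51 (adjusted p = 0.0187). Ssbp1, the single-strand binding protein of the replication fork, fell by 0.49 (adjusted p = 0.0288), a call that ended in 3 of 12 such fits, as that of Mterf4 did in 1. Polg2, the accessory subunit of polymerase gamma, was at 0.07 (95% interval -0.49 to 0.63), unlike the catalytic Polg, though the difference between these genes was not tested. The topoisomerase Top1mt (-0.29) and the protease Lonp1 (-0.24), known to degrade TFAM, were not called.

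With Irx3 vector 31 of the 102 other genes (30.4%) were called higher and 17 (16.7%) lower (median 0.21), against 25.2% and 24.1% of all genes. With the GC curve removed 14 of 100 were higher and 5 lower (median 0.12), against 13% and 12.3% of all genes, so the shares called higher lay near those of all genes. RNA processing genes had 10 of 25 higher in the deposited counts and 2 of 23 with the GC curve removed. The tRNA synthetases had 4 higher and 6 lower of 17, and then 2 higher and 3 lower. Mtif2, a mitochondrial initiation factor, rose by 1.60 (1.05 with the GC curve removed, adjusted p = 0.00611). The ribonucleotide reductase subunit Rrm2b rose by 1.76 (0.60 with the GC curve removed, adjusted p = 0.0249), and the poly(A) polymerase Mtpap by 1.41 (0.58, adjusted p = 0.0168). The corrected calls ended without replicate 1 of the control infarcts for Mtpap and Rrm2b, and for Rrm2b also without replicate 2 or 4 of the Irx3 infarcts. The leucyl-tRNA synthetase Lars2 fell, with -1.19 in the deposited counts and -1.06 with the GC curve removed (adjusted p = 0.00114). Several calls did not pass with the GC curve removed, among them the nucleotide carrier Slc25a36 (1.03, then -0.02), Lonp1 (-0.95, then -0.36, adjusted p = 0.0525), Dhx30 (-0.58, then -0.06) and Sars2 (-0.66, then -0.01). Ssbp1 changed direction between the fits, from 0.55 (adjusted p = 0.0155) to -0.46 (adjusted p = 0.0162).

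Of the partners, Mgme1 rose by 0.53 with Irx3 vector and by 0.48 with the GC curve removed (adjusted p = 0.0345), a call that ended in 5 of 12 fits with 1 library left out. Mterf2 (1.48, then 0.78, adjusted p = 0.0933) and Tefm (0.76, then 0.26, adjusted p = 0.362) were called only in the deposited counts. Polg2 (0.40), Top1mt (-0.39) and Mterf4 (0.09) were not called in either fit.

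Against sham hearts, 51 of the 102 other genes were lower in Irx3 infarcts and 13 higher, against 27.7% and 35.2% of all genes. With the GC curve removed 46 and 7 of 100 were called, against 21.5% and 32.7%. Cars2 (-1.25), Tars2 (-1.25), Vars2 (-1.34) and Ptcd1, an RNA-binding pentatricopeptide protein (-1.17), were called lower in both fits. Dna2 (1.59) and Primpol (1.84) were again higher in both, although the corrected call of Primpol ended without replicate 3 of the sham hearts or replicate 3 of the Irx3 infarcts. Mtpap (1.15) and Slc25a36 (0.98) were higher in the deposited counts only, with 0.37 and 0.01 after the GC curve was removed.

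**Figure D5:**
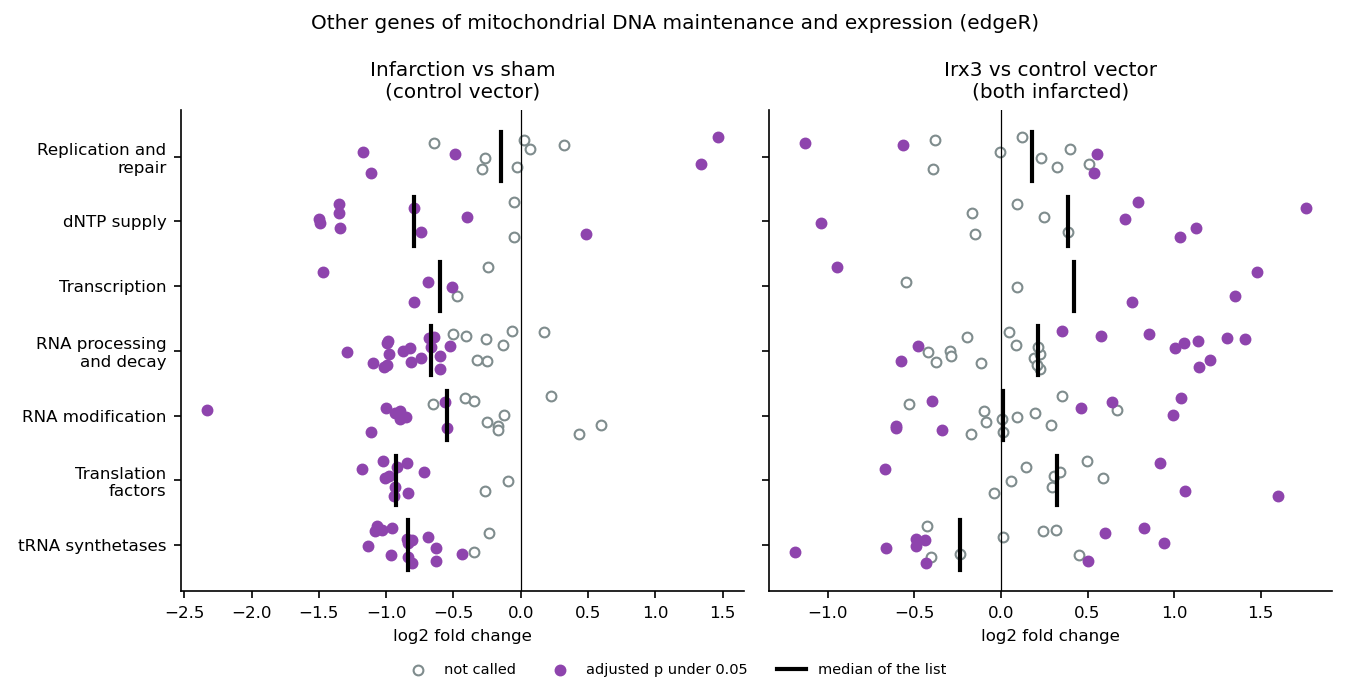
Log2 fold change of the 102 other machinery genes tested, 1 point per gene, by function, filled where the adjusted p in edgeR was under 0.05, with the median of each list as a black bar. With infarction the medians of all 7 lists lie below 0, and 66 genes are called lower. With Irx3 vector the points spread to both sides, with 31 called higher and 17 lower.

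Transcription of some genes of this kind in the nucleus is known to involve the nuclear respiratory factors NRF1 and GABP, with coactivators of the PGC-1 family. GABP is an ETS-type factor whose DNA-binding subunit is Gabpa. Windows from 250 bases before to the start site of the RefSeq promoters on GRCm38.p6 were matched for 8 of the 9 genes. Both strands were searched for the ETS-type letters CCGGAAG and the NRF1-type letters GCNTGCGC, which do not overlap each other in the windows shown. CCGGAAG was present in 6.91% of 32851 promoters and GCNTGCGC in 8.30%. Of the 8 genes, Tfam, Polg and Polrmt held the first at 1 place in their single window, Slirp at 3 places in its window and Twnk in 1 of 2 windows, and only Polrmt held the second. The 140 bases before the start are shown for Tfam, Polg and Polrmt, with these matches in capitals, because these genes share the ETS-type letters and moved in different directions with Irx3 vector. They lie at chr10:71238045-71238184, chr7:79466274-79466413 and chr10:79746582-79746721, all on the minus strand.
Tfam: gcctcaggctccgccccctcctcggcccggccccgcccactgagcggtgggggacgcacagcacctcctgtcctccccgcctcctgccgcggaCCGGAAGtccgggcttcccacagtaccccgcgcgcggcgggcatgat
Polg: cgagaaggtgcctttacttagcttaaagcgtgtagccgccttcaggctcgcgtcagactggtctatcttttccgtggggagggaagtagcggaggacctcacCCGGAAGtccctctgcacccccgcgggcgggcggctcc
Polrmt: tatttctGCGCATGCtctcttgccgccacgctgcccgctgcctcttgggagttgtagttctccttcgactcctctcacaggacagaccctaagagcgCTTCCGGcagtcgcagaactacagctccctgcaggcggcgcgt

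The ETS-type match began at position -47 in Tfam, -38 in Polg and -43 in Polrmt, counted from the start site, and it was on the opposite strand in Polrmt. The match of the NRF1-type letters in Polrmt began at -133. A match is a description of letters, not of binding.

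The known regulators themselves were measured as a list of 11 genes. With infarction 27.3% of the list were called higher and 18.2% lower, near the 26.3% and 22.4% of all genes. With infarction 2 fell, Gabpa by 0.66 (adjusted p = 0.00269) and the nuclear receptor Esrra by 1.03 (adjusted p = 0.00112). Myc (0.93, adjusted p = 0.00804), the PGC-1 relative Pprc1 (0.75, adjusted p = 0.00106) and Gabpb2 (0.35, adjusted p = 0.0381) rose, and the call of Gabpb2 ended in 10 of 12 fits with 1 library left out. Nrf1 was at -0.09 (95% interval -0.42 to 0.24) and Ppargc1a, which encodes PGC-1 alpha, at 0.22 (interval -0.84 to 1.28).

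With Irx3 vector 4 regulators rose (36.4%) and 3 fell (27.3%) in the deposited counts, against 25.2% and 24.1% of all genes. With the GC curve removed 2 rose and 2 fell (18.2% each), against 13% and 12.3%. Gabpa rose by 1.28 (adjusted p = 5.17e-05) and by 0.32 with the GC curve removed (adjusted p = 0.0165), and its partner Gabpb1 by 1.11 and then 0.58 (adjusted p = 0.0425). Ppargc1a stood at 167, 443, 206 and 42.0 CPM in control infarcts and at 47.5, 77.7, 66.8 and 84.4 CPM in Irx3 infarcts. Replicate 2 of the control infarcts carried much of their mean, and replicate 4 lay below every Irx3 infarct, so the groups overlapped. The log2 difference was -1.63 (SE 0.48, adjusted p = 0.0127), and without that replicate 2 it was -0.998 (adjusted p = 0.0545). With the GC curve removed Ppargc1a was called lower at -2.45 (adjusted p = 0.00201), also with each library left out (-2.78 to -1.99). Myc fell too, at -1.35 and then -0.69 (adjusted p = 0.0335). Of 12 GC-corrected fits with 1 library left out, the call ended in 1 for Gabpa (without replicate 1 of the control infarcts, adjusted p = 0.0508), in 9 for Gabpb1 and in 6 for Myc. The calls of Creb1 (0.90, then -0.28), Gabpb2 (0.35, then -0.05) and Esrra (-0.82, then -0.17) did not pass with the GC curve removed, and those of Creb1 and Gabpb2 changed sign.

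For each of the 9 genes, the gene with the most similar pattern of log2 CPM was found over the 12 libraries, by Pearson correlation given as a description, since the libraries share group, depth and GC curve. For Lrpprc it was Ndufs1, a subunit of respiratory complex I (r = 0.995), and with the GC curves removed Atp5b, a subunit of ATP synthase (r = 0.991). For Tfb2m it was Dld, a dehydrogenase subunit of the mitochondrial matrix (r = 0.993), and then Mkrn2 (r = 0.996). Polrmt was nearest to Rhbdd3 (r = 0.995) and then to Eef1a2 (r = 0.995), a translation elongation factor of muscle and nerve. Twnk was nearest to Gtf2i (r = 0.993) and then Tmem201 (r = 0.988), Polg to Vps52 (r = 0.994) and then Slc46a3 (r = 0.976), and Mterf3 to Ide (r = 0.992) and then Chac2 (r = 0.970). Tfam was nearest to Fbxl17 (r = 0.989) and then Klhl12 (r = 0.967), Tfb1m to Map2k4 (r = 0.983) and then Afg1l (r = 0.948), and Slirp to Lancl2 (r = 0.965) and then Ppme1 (r = 0.866). None of the 9 nearest genes was the same in the uncorrected and the GC-corrected values, although Dld stayed at rank 2 for Tfb2m after correction (r = 0.993).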

How the data were processed

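Polyadenylated RNA of 12 left ventricles was sequenced, 4 per group. Per gene the authors deposited raw read counts, made on GRCm39 from reads trimmed with fastp, per the submitters' processing notes. The sources used here do not give the fastp version, aligner, counting tool or strand setting. The series text gives 4 mice per group, and each library was taken as 1 mouse. No 2 libraries of a group were duplicates (chi-square per degree of freedom at least 7.31). Total counts of 13352604 to 19236721 per library set the counting precision.

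Counts were tested in edgeR 4.0.16 (R 4.3.3), quasi-likelihood with robust fitting, TMM factors and filterByExpr, 1 term per group over 12 libraries, 9 residual degrees of freedom. This left 15742 genes. Calls are at an adjusted p under 0.05 (Benjamini-Hochberg, all genes tested). Folds of single genes are from this model and CPM uses TMM factors. Group labels and comparisons came from the sample titles. The GC curve is a natural spline with 6 degrees of freedom per library, on the GC content of GENCODE M21 transcripts (15184 genes, 96.5% of those tested), entered as an offset. Per-kilobase levels use the same transcripts. Intervals are at 95%. Alternatives were RLE factors, DESeq2 1.42.0, no filter, only the groups compared, mt- genes removed, replicate block, glmTreat at a fold change of 1.5 and each library left out. Left out after seeing the data were both replicates 4 of the infarcted groups, each library together with the GC curve, and, for the genes named beyond the 9, each library in both fits. The fits were tested on simulated data drawn without a GC trend, so the removal of such a trend was not tested there.

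The members and all gene lists were chosen with earlier results of these data known. Genes named beyond the members were 8 partners, all regulators, the 4 other machinery genes per comparison and direction with the smallest p, the mt- genes, and the nearest gene by pattern (mean log2 CPM of at least 2). Only part of these are printed.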

Additional observations from a re-analysis of the deposited data

Results flagged for a closer look

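Across 51 sets of 4 libraries examined for a single library far from the rest, 1 stood out: the summed CPM of 5 erythroid markers in replicate 4 of the control infarcts was 1058, while the other 3 control infarcts had 74.6, 123 and 125. The gap to the nearest library was 0.949 of the whole range. Chance alone singles out about 1 in 20 such sets. This is the library in which 6 of the 9 machinery genes had their lowest control infarct value.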

How the results depend on the processing

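Of the calls on the 9 genes, those for infarction changed least, and those with Irx3 vector changed most with the GC curve. Over all settings and genes, 294 of 314 values for infarction against sham stayed on their side of the threshold with their direction, 238 of 315 for Irx3 against control infarcts and 256 of 315 for Irx3 infarcts against sham.

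With the GC curve removed, the 9 genes had 2 higher and 1 lower with Irx3 vector against control infarcts, and 0 higher and 5 lower against sham. The other machinery genes then had 14 higher and 5 lower, and 7 higher against sham. With both replicates 4 left out as well, the counts were 0 higher for the 9 genes and 6 higher and 10 lower for the others, and against sham 0 higher and 5 lower for the 9 genes and 7 higher for the others. Of all 15400 genes in that fit, 1751 were higher and 1782 lower with Irx3 vector, and 5489 higher and 3841 lower against sham. Tfb2m then changed direction with Irx3 vector, to -0.17 (adjusted p = 0.256). In infarction against sham 5 others were higher, against 4403 of all 15400 genes. Without the GC curve, leaving out both replicates 4 gave 19 others higher with Irx3 vector, against 3720 of all 15982 genes. The causes of these shifts were not tested.

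Against a fold change of 1.5 (glmTreat), which asks for more than a nonzero change, the 9 genes had 2 lower with infarction, 2 higher and 0 lower with Irx3 vector, and 1 higher against sham. The others had 23 lower with infarction, 10 higher and 2 lower with Irx3 vector, and 4 higher and 28 lower against sham. Of all 15742 genes, 1229 were lower with infarction, and 1703 were higher and 1084 lower with Irx3 vector. Against sham 3457 were higher and 2078 lower.

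The replicate numbers did not pair the libraries (correlations of residuals of same-numbered libraries -0.60 to 0.18 over 12 pairs). With the replicate block the 9 genes kept their counts of 6 lower, 5 higher and 2 lower, and 2 higher and 3 lower, and the others had 61 lower with infarction and 24 higher and 12 lower with Irx3 vector. Of all 15742 genes, the block gave 2987 lower with infarction, 3503 higher and 3176 lower with Irx3 vector, and 5090 higher and 3987 lower against sham. The block together with the GC curve gave 1 higher and 1 lower with Irx3 vector and 0 higher against sham for the 9 genes, and 8 higher, 4 lower and 7 higher for the others. Of all 15184 genes it gave 1343 higher and 1252 lower with Irx3 vector and 4407 higher against sham.

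Leaving out each library gave 6 to 8 of the 9 genes lower with infarction, 4 to 6 higher and 2 lower with Irx3 vector, and 2 higher and 3 to 4 lower against sham. The others ran from 58 to 75 lower and 2 to 3 higher with infarction, 21 to 39 higher and 11 to 20 lower with Irx3 vector, and 11 to 16 higher and 49 to 59 lower against sham. Of the 15975 to 16213 genes tested, 2982 to 4423 were lower and 3379 to 4291 higher with infarction. With Irx3 vector 3531 to 4335 were higher and 3231 to 4018 lower. Against sham 4823 to 5648 were higher and 3908 to 4938 lower. With the GC curve as well, the 9 genes had 6 to 8 lower with infarction, 0 to 4 higher and 1 lower with Irx3 vector, and 0 to 1 higher and 4 to 5 lower against sham. The others had 57 to 66 lower and 3 to 6 higher with infarction, 7 to 18 higher and 4 to 6 lower with Irx3 vector, and 5 to 8 higher and 38 to 59 lower against sham. Of the 15389 to 15609 genes tested then, 2951 to 3599 were lower and 4139 to 4860 higher with infarction. With Irx3 vector 1362 to 2211 were higher and 1244 to 2124 lower. Against sham 4322 to 5267 were higher and 2731 to 3599 lower.

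The mitochondrial share differed by -4.40 to -2.74 percentage points with infarction (exact permutation p 0.0571 to 0.171), by 9.20 to 12.1 with Irx3 vector and by 5.77 to 8.63 against sham when 1 library was left out, where 3 against 4 cannot go below an exact permutation p of 0.0571. On ribosomal RNA genes alone the difference was -0.11 with infarction (exact permutation p = 0.0286) and 0.10 for Irx3 infarcts against sham (exact permutation p = 0.0857). On CPM with factors from the table without mt- genes the latter was 60579 (exact permutation p = 0.0571). With 4 libraries a group and under 40 counts of Slirp per library, no statement on Slirp is firm. Counts of higher genes with Irx3 vector here include Slirp wherever it passed the threshold, although it entered the test only through the Irx3 group.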
